A study of Mus musculus with 12 samples.

Results

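Interferon-stimulated genes were followed in the trigeminal ganglia of 12 CD1 mice, an outbred stock. The set was 39 genes named by symbol, a textbook interferon module chosen with earlier results of these data known. All 39 had a row among the 51341 genes of the deposited table. Of these, 26 reached 1 FPKM in at least 3 mice and were tested together with all other genes that did so, and 13 did not. The mice compared were 6 responders to PACAP, a neuropeptide of sensory nerves whose full name is pituitary adenylate cyclase-activating polypeptide, and 6 non-responders, with 3 females and 3 males in each group. Responders 3, 4 and 5 and non-responders 1, 3 and 6 were female, and the others were male. Each library came from its own mouse, and the sources used here name no genetic change, age or time since PACAP and no scoring of the response. RNA was made from whole frozen ganglia with poly A selection and sequenced from both ends.

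Interferons are secreted proteins that cells release on sensing viral or stray nucleic acid. Type I interferons bind a receptor made of IFNAR1 and IFNAR2, whose kinases JAK1 and TYK2 pass the signal on to transcription factors. STAT2 and IRF9 belong to the complex that binds the interferon-stimulated response element (ISRE) in promoters, and the gamma-activated site (GAS) is the element through which interferon gamma acts. The genes so induced block viral entry, replication and translation, and include the sensors and transcription factors of the pathway itself. Sensory ganglia can hold latent herpesviruses and their neurons and glia respond to interferon.

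The promoters of 8 members are printed to show the element by which the group is named, which 7 of them hold. They are RefSeq windows of 300 bases on GRCm38.p6, from 250 bases before to 50 after the start of the gene, read 5′ to 3′ on the gene's strand. Capitals mark matches, on either strand, to the ISRE core, which is a pair of GAAA runs with 2 bases of any kind between them. Bst2, Ifit3, Eif2ak2 and Stat2 are the members with a match that ranked highest by mean FPKM, and Cmpk2 is the highest member whose window holds none (Ifi27, the highest of all, has no window). Isg15, Ifit3b and Ifit1 were added after their values were seen, because the differences between mice were widest there.
Isg15 (chr4:156200769-156201068, minus strand): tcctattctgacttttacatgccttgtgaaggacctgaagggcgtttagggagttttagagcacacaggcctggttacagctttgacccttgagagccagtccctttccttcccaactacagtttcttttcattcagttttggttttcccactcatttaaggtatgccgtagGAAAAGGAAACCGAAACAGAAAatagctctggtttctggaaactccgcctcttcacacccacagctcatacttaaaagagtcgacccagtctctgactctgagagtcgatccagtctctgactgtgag
Ifit1 (chr19:34640639-34640938, plus strand): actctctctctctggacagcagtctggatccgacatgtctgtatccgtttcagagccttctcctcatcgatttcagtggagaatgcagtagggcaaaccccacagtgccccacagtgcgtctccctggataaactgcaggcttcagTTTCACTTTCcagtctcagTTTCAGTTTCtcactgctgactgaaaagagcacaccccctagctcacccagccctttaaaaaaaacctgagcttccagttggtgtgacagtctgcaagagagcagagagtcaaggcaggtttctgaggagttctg
Ifit3 (chr19:34583279-34583578, plus strand): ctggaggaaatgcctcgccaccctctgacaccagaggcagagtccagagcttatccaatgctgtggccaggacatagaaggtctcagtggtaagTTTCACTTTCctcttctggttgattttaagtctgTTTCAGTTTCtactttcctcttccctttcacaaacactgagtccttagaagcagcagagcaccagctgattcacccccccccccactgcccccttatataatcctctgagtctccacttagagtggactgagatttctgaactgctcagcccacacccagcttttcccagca
Ifit3b (chr19:34607707-34608006, plus strand): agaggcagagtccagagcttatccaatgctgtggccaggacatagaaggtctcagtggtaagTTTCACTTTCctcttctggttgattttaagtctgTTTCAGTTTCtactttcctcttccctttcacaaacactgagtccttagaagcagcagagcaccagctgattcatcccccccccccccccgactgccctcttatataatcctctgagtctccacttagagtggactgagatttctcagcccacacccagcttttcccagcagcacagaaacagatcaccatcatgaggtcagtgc
Bst2 (chr8:71537423-71537722, minus strand): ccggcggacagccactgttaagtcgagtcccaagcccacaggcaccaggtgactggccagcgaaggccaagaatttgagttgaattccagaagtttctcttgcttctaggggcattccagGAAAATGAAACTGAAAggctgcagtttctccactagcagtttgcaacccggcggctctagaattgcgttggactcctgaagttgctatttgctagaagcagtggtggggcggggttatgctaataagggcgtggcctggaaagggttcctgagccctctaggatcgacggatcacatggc
Stat2 (chr10:128270248-128270547, plus strand): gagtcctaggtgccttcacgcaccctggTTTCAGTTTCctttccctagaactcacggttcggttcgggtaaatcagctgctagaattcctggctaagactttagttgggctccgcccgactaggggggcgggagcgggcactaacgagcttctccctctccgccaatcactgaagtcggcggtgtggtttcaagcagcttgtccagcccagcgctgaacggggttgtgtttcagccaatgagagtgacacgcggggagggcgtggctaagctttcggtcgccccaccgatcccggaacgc
Eif2ak2 (chr17:78882523-78882822, minus strand): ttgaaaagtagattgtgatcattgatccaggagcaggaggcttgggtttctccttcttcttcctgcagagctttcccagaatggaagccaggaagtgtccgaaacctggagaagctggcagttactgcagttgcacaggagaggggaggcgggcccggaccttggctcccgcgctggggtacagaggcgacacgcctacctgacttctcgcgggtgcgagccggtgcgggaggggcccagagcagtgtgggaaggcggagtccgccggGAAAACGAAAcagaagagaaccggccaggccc
Cmpk2 (chr12:26468965-26469264, plus strand): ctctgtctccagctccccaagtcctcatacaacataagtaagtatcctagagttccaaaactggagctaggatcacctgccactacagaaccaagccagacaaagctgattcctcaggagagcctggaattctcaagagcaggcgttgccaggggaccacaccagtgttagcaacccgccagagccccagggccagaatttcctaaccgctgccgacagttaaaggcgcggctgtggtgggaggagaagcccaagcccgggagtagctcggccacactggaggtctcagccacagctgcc

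In Isg15 the first bases of 3 overlapping cores lay at -78, -72 and -66, counted from the start of the gene as 0. Ifit1 carried 2, at -104 and -85. The windows of Ifit3 and Ifit3b were 94.5% identical over 274 aligned positions and held the same pair of cores, at -156 and -122 in Ifit3 and at -188 and -154 in Ifit3b. Bst2 had 2 overlapping cores, at -130 and -124, and Stat2 had 1 at -222. The core of Eif2ak2 lay after the start, at 18. Of the 39 members, 28 had a window, and 18 of these 28 held the ISRE core, against 3.44% of all 32851 windows. The GAS letters, TTC and GAA with 3 bases of any kind between them, read the same on both strands and stood in 7 of the 28, against 8.3% of all windows. Both motifs stood in 5 of the 28, against 0.454%, and the GAS of Bst2 overlapped its ISRE. A match is a run of letters and not a measured site, and a window without one says nothing of the factor.

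The libraries differed from each other in ways that touch these genes. Total FPKM ranged from 286388 to 358590 per mouse, and the values implied a depth of 17600000 fragments in responder 1, the shallowest, up to 39400000 in non-responder 4. Non-responder 4 stood apart on the first principal component (28.0% of the variance) and responder 1 on the second (18.7%). All 10 sensory neuron markers were tested and stood at 1 FPKM or more in every mouse. Their summed level was 1380 to 2815 FPKM in responders and 1577 to 2632 FPKM in non-responders, and was lowest in responder 1. These markers do not measure how pure a dissection was. Xist was at least 11.1 FPKM in every female and at most 0.034 in any male, as the labels of sex require. Summed pituitary markers reached 77880 FPKM in responder 1, against 359 to 6845 FPKM in the other responders and 27.2 to 1053 FPKM in non-responders. Summed neutrophil markers reached 4142 FPKM in non-responder 4, against 7.95 to 864 FPKM in the other 11 mice. Each description begins with a number of unstated meaning (44, 45, 48 and 49 in responders, 68, 82 and 83 in non-responders). No such number occurs in both groups or in both sexes, so response, sex and their interaction cannot be told apart from it.

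The members were expressed at low to middling levels. Mean FPKM over the 12 mice ran from 0.0505 for Dtx3l to 11.1 for Ifi27. A mean above 5 FPKM was found for 13 members, a mean between 1 and 5 for 11 and a mean under 1 for 15. The 26 tested members had a median level of 4.65 FPKM, against 6.28 FPKM over all 14203 genes tested. By mean FPKM, a scale per length, the order was led by Ifi27 (11.1 ± 2.71), Cmpk2 (10.6 ± 1.20), Bst2 (10.1 ± 3.32), Ifit3 (9.65 ± 7.16) and Ifit2 (8.59 ± 1.42), each as mean ± SD over 12 mice. Neighbours among these 5 lay within their SD of each other. At the lower end of the tested members stood Trim30a, with 4 mice at 1 FPKM or more, and Oas1a, with 3. Just below the filter, Ifih1, Zbp1, Oas1b and Ifi44 had 2 such mice each. A value of 0 in at least 1 mouse was listed for 4 members, which were Mx1, Oas2, Dtx3l and Igtp.

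Whether interferon-stimulated genes differ in the ganglion with the response to PACAP was asked by limma on log2(FPKM + 1) with sex as a covariate. None of the 26 tested members passed an adjusted p of 0.05, where 0.0211% of all genes did (3 of 14203). At an unadjusted p under 0.05 the count was 0 of 26 members, against 7.40% of all genes. The fold change was above 0 for 17 members and below 0 for 9, and 50.7% of all genes were above 0. Its median over the tested members was 0.04, against 0.00 over all genes, on a log2(FPKM + 1) scale that shrinks changes at low levels. Single members ran from -0.32 for Ifit3 to 0.31 for Gbp3, and adjusted p-values ran from 0.676 to 0.995. The groups overlapped for all 26, while 0.549% of all genes had groups that did not. The 95% intervals of all 26 members covered 0, and reached 0.19 to 1.02 to either side of the fold change. Log2 differences inside these intervals are compatible with the data. The intervals are not a limit of detection after adjustment over all genes. In whole ganglia a lower level can be fewer cells of a type or less RNA per cell, and these cannot be told apart.

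**Figure D1:**
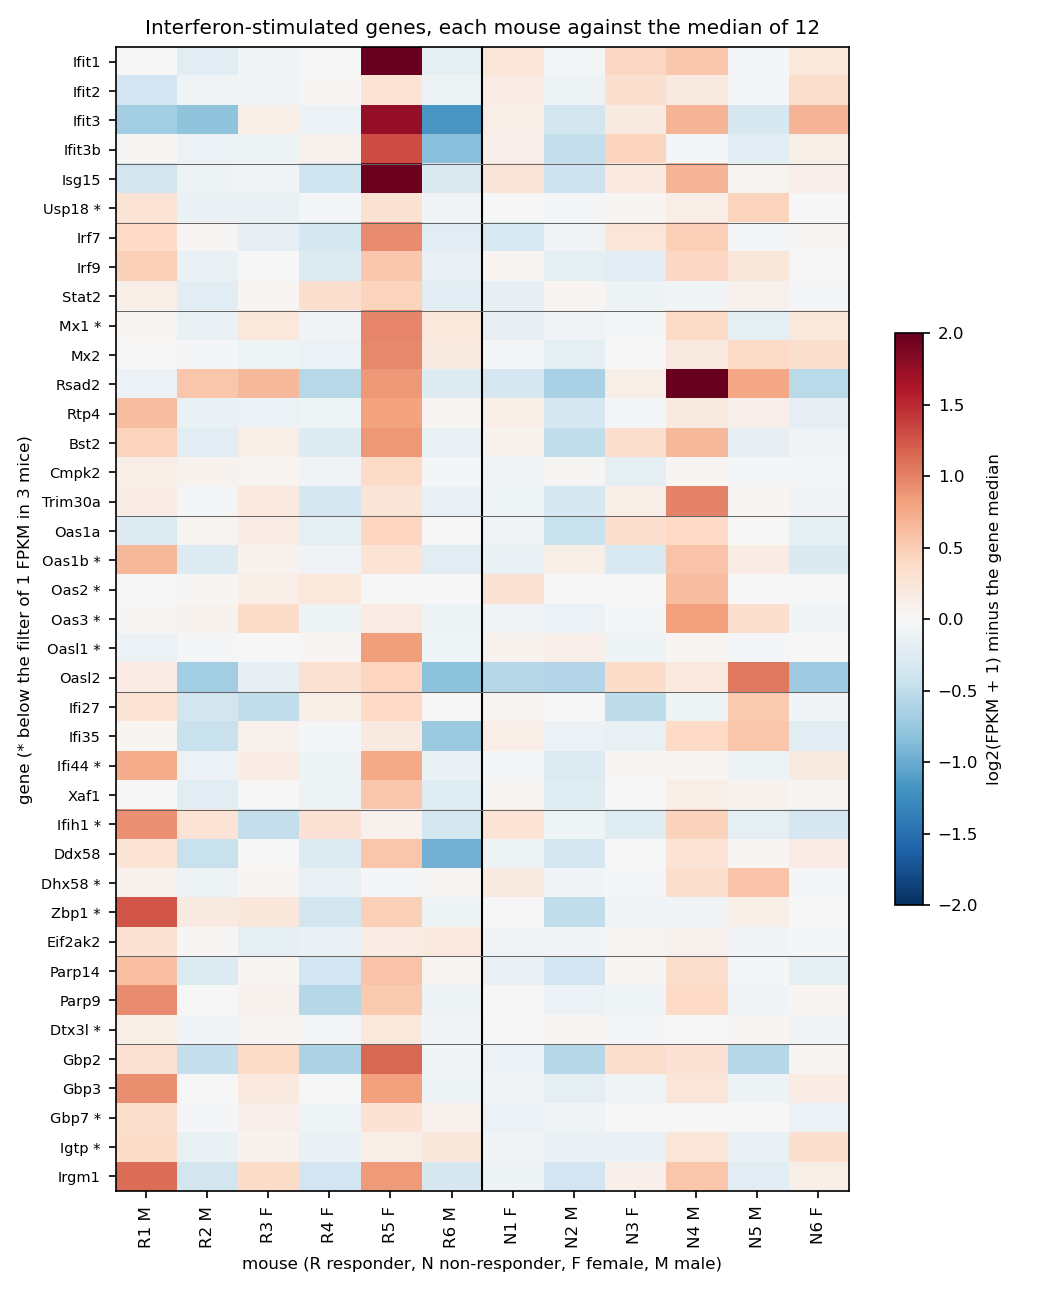
Log2(FPKM + 1) of the 39 interferon-stimulated genes (rows, grouped by role) in 12 mice (columns), as the difference from the median of each gene over all 12. Colours are capped at 2 log2 units either way, an asterisk marks the 13 genes below the filter, and the column of responder 5 is red over most rows.

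The IFIT proteins bind foreign RNA and block its translation, and the 4 IFIT members of the set lie near each other on chromosome 19. Ifit1 (GRCm38 chr19:34640871-34650009, plus strand) read 2.19, 1.74, 2.09, 2.25, 11.9 and 1.84 FPKM in responders 1 to 6 and 2.82, 2.16, 3.27, 3.67, 2.17 and 2.72 FPKM in non-responders 1 to 6. Only responder 5 was above every non-responder, and 3 of the other responders were below every non-responder. Its log2 fold change was 0.03 (SE 0.32, adjusted p = 0.986 by limma). Ifit3 (chr19:34583531-34588731, plus strand) read 4.63, 4.20, 8.90, 7.38, 29.8 and 3.07 FPKM in responders and 9.02, 6.08, 9.35, 13.5, 6.31 and 13.6 FPKM in non-responders. Group means were nearly equal, at 9.66 ± 10.1 FPKM in responders and 9.65 ± 3.32 FPKM in non-responders (SD, n = 6 each), and without responder 5 the responders lay below 4 of the 6 non-responders. Its log2 fold change was -0.32 (SE 0.35, adjusted p = 0.844 by limma).

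Ifit3b (chr19:34607970-34613401, plus strand), a near copy of Ifit3, read 5.38, 4.80, 4.87, 5.66, 14.5 and 2.54 FPKM in responders and 5.73, 3.55, 7.60, 5.22, 4.46 and 5.80 FPKM in non-responders. The groups overlapped throughout, with responder 5 above and responder 6 below all other mice, and the log2 fold change was 0.06 (SE 0.24, adjusted p = 0.959 by limma). Their transcripts matched at 97.8% over 1700 bases, so the split of reads between Ifit3 and Ifit3b is uncertain. Ifit2 (chr19:34550694-34576419, plus strand), which also promotes cell death, varied least in the family. It read 6.03, 7.76, 7.85, 8.29, 10.1 and 7.52 FPKM in responders and 9.29, 7.54, 10.5, 9.39, 8.04 and 10.7 FPKM in non-responders. It had the smallest p of all members for the response, at 0.051 before adjustment, with a log2 fold change of -0.20 (SE 0.09, adjusted p = 0.676 by limma). The groups overlapped, and responder 5 lay above 4 of the 6 non-responders.

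**Figure D2:**
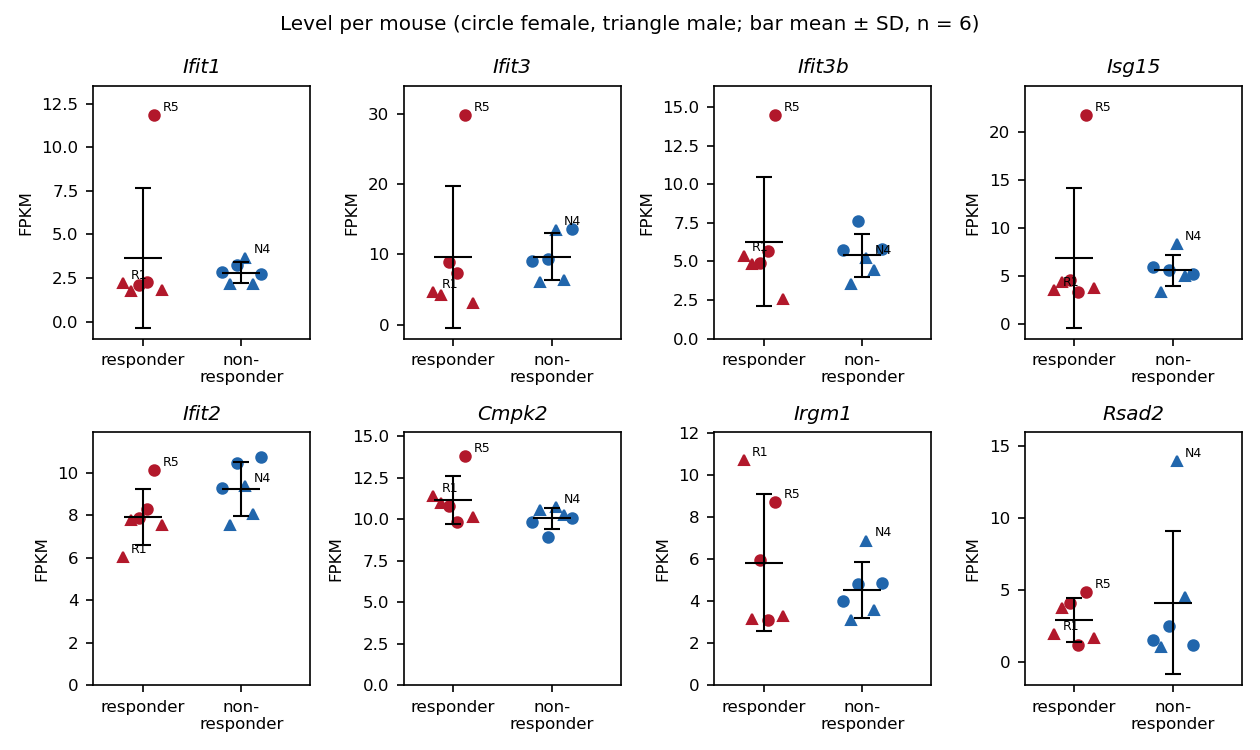
FPKM of 8 members in each mouse (responders red, left; non-responders blue, right; circles female, triangles male), with mean ± SD over 6 mice as bars. Responder 5 lies far above the other mice for Ifit1, Ifit3, Ifit3b and Isg15, responder 1 is highest for Irgm1 and non-responder 4 for Rsad2, while the mice lie closer together for Ifit2 and Cmpk2.

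ISG15 is a ubiquitin-like protein joined to other proteins during the interferon response, and USP18 removes it and dampens the receptor. Isg15 (chr4:156199424-156200818, minus strand) read 3.55, 4.46, 4.63, 3.42, 21.8 and 3.79 FPKM in responders and 6.02, 3.38, 5.66, 8.36, 5.06 and 5.26 FPKM in non-responders. Responder 5 stood alone, and the other 5 responders lay below 5 of the 6 non-responders. The log2 fold change was -0.02 (SE 0.36, adjusted p = 0.991 by limma). A transcript of AC151275.1 matched Isg15 at 95.2% over 482 bases but was listed at 0.031 FPKM on average. Usp18 stayed below the filter, at 0.0951 to 0.477 FPKM in responders and 0.185 to 0.636 FPKM in non-responders.

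The transcription factors of the pathway did not separate the groups. Stat2 (chr10:128270559-128292849, plus strand), a subunit of the ISRE-binding complex, read 6.97, 5.38, 6.58, 8.21, 9.09 and 5.27 FPKM in responders and 5.61, 6.61, 5.88, 6.08, 6.79 and 6.17 FPKM in non-responders. The responders spread on both sides of the non-responders, with a log2 fold change of 0.12 (SE 0.12, adjusted p = 0.823 by limma). Irf9, the DNA-binding subunit of that complex, averaged 6.76 ± 1.96 FPKM in responders and 6.52 ± 1.28 FPKM in non-responders (SD, n = 6 each). Irf7, which amplifies type I interferon production, ran from 0.668 to 3.08 FPKM in responders and 0.726 to 1.96 FPKM in non-responders. Responder 5 held the highest value of Stat2, Irf9 and Irf7 alike.

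Among the direct antiviral effectors, Bst2 and Cmpk2 were the most abundant. Bst2 (tetherin, which holds budding virus at the cell surface) had a lowest, median and highest level of 7.37, 9.01 and 17.2 FPKM in responders and 6.06, 8.97 and 14.6 FPKM in non-responders. Cmpk2, a mitochondrial nucleotide kinase, ran at 9.79, 10.9 and 13.8 FPKM in responders and 8.94, 10.1 and 10.7 FPKM in non-responders. Their groups overlapped, with log2 fold changes of 0.09 for Bst2 and 0.13 for Cmpk2 (adjusted p = 0.944 and 0.766 by limma). Cmpk2 lies next to Rsad2 on chromosome 12, where Rsad2 (chr12:26442746-26456452, minus strand) encodes viperin, an enzyme that makes a chain-terminating nucleotide. Rsad2 varied more than any other member on the log2 scale, at 1.96, 3.75, 4.09, 1.20, 4.90 and 1.71 FPKM in responders and 1.56, 1.07, 2.52, 14.0, 4.52 and 1.21 FPKM in non-responders. Its extreme was non-responder 4, and the log2 fold change was -0.07 (SE 0.46, adjusted p = 0.976 by limma).

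Rtp4, a chaperone of membrane receptors that also binds viral RNA, averaged 2.44 ± 1.06 FPKM in responders and 1.90 ± 0.395 FPKM in non-responders (SD, n = 6 each), with a log2 fold change of 0.21 (adjusted p = 0.804 by limma). It shares 296 identical bases and its strand with Gm45338, so its value is uncertain. The Mx GTPases block incoming viral ribonucleoprotein. Mx1 was under the filter, at 0.0475 to 1.26 FPKM in responders and 0 to 0.497 FPKM in non-responders, and Mx2 ran from 0.864 to 2.96 FPKM in responders and 0.781 to 1.63 FPKM in non-responders. Their transcripts matched at 94.8% over 921 bases, and GENCODE M21 classes Mx2 as a polymorphic pseudogene. Trim30a, a ubiquitin ligase family member, ran from 0.425 to 1.17 FPKM in responders and 0.449 to 2.59 FPKM in non-responders, where non-responder 4 was highest.

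Active oligoadenylate synthetases make the second messenger that activates RNase L, and most genes of the family read here were near the floor of detection. Of 6 members, 2 passed the filter. Oasl2, a synthetase-like protein with a ubiquitin-like tail, had a lowest, median and highest level of 0.727, 2.06 and 3.10 FPKM in responders and 0.838, 1.76 and 5.32 FPKM in non-responders. Oas1a ran from 0.485 to 1.39 FPKM in responders and 0.298 to 1.33 FPKM in non-responders, and its transcript matched that of Oas1g at 97.6% over 1861 bases. Neither gene separated the groups, with log2 fold changes of -0.08 for Oasl2 and 0.03 for Oas1a (adjusted p = 0.963 and 0.972 by limma). Oas1b, which GENCODE classes as a polymorphic pseudogene, and Oas2, Oas3 and Oasl1 stayed below the filter. Of these, Oasl1 reached 1.85 FPKM in responder 5, Oas1b 1.33 FPKM in responder 1, and Oas3 0.930 FPKM in non-responder 4, while Oas2 was never above 0.537 FPKM.

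Of the IFI genes and Xaf1, Ifi27 (a small membrane protein linked to cell death) was the most abundant member of all, with a lowest, median and highest level of 7.42, 11.5 and 14.6 FPKM in responders and 7.38, 10.6 and 16.1 FPKM in non-responders. Its log2 fold change was 0.00 (SE 0.19, adjusted p = 0.995 by limma). Xaf1, a binding partner of the apoptosis inhibitor XIAP, read 6.75 to 12.3 FPKM in responders and 6.79 to 8.92 FPKM in non-responders. Ifi35, which binds the protein NMI, had a lowest, median and highest level of 0.238, 1.08 and 1.35 FPKM in responders and 0.786, 1.10 and 2.07 FPKM in non-responders (log2 fold change -0.26, SE 0.19, adjusted p = 0.771 by limma). Groups overlapped for these 3 genes. Ifi44, below the filter, was highest in responder 5, at 1.34 FPKM, with responder 1 next, and stayed at 0.566 FPKM or less in the other 10.

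The sensors split into expressed and barely expressed members. Eif2ak2 encodes PKR, the kinase that stops translation on binding double-stranded RNA, and averaged 7.58 ± 1.13 FPKM in responders and 7.14 ± 0.365 FPKM in non-responders (SD, n = 6 each). Ddx58 (RIG-I, a sensor of short viral RNA) averaged 3.19 ± 1.50 FPKM in responders and 3.40 ± 0.651 FPKM in non-responders. Neither differed beyond the spread between mice, with log2 fold changes of 0.07 for Eif2ak2 and -0.14 for Ddx58 (adjusted p = 0.868 and 0.895 by limma). The long-RNA sensor Ifih1 (MDA5), the regulator Dhx58 (LGP2) and the nucleic acid sensor Zbp1 did not pass the filter, with means of 0.672, 0.335 and 0.671 FPKM over all mice. Both Ifih1, at 1.92 FPKM, and Zbp1, at 2.55 FPKM, were highest in responder 1.

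Parp14 and Parp9 are ADP-ribosyltransferase family members, and PARP9 forms a complex with the ubiquitin ligase DTX3L. Parp14 averaged 2.81 ± 1.10 FPKM in responders and 2.32 ± 0.600 FPKM in non-responders (SD, n = 6 each). Parp9 averaged 3.21 ± 1.60 FPKM in responders and 2.70 ± 0.535 FPKM in non-responders. These differences lay within the spread (log2 fold changes 0.17 for Parp14 and 0.12 for Parp9, adjusted p = 0.853 and 0.910 by limma). Parp9 overlaps Dtx3l on the opposite strand over 682 bases and the antisense gene Gm15564, at 12.6 FPKM, over 5854 bases. The sources used here do not say whether counting used strand, so the values of Parp9 and of Dtx3l, the lowest member, are uncertain.

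The interferon-induced GTPases act on membranes around intracellular pathogens. Gbp3 had the highest fold change of the set, with a lowest, median and highest level of 3.18, 3.77 and 7.52 FPKM in responders and 2.90, 3.27 and 4.26 FPKM in non-responders. Its log2 fold change was 0.31 (SE 0.19, adjusted p = 0.741 by limma), and the top of its range came from responders 1 and 5, at 7.52 and 6.88 FPKM. Gbp2 ran from 2.99 to 12.6 FPKM in responders and 3.13 to 6.83 FPKM in non-responders. Irgm1, which also controls autophagy, read 10.7, 3.17, 5.94, 3.11, 8.72 and 3.29 FPKM in responders and 3.99, 3.12, 4.79, 6.88, 3.57 and 4.85 FPKM in non-responders. Here too responders 1 and 5 were above all non-responders, and responders 2, 4 and 6 were below at least 5 of them. The log2 fold changes were 0.21 for Gbp2 and 0.20 for Irgm1 (adjusted p = 0.869 and 0.882 by limma). Gbp7 (0.446 to 0.954 FPKM in responders, 0.415 to 0.553 FPKM in non-responders) and Igtp (at most 0.421 FPKM) were below the filter. Igtp shares 7974 bases of its strand with Irgm2, at 5.25 FPKM, and its value is uncertain.

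**Figure D3:**
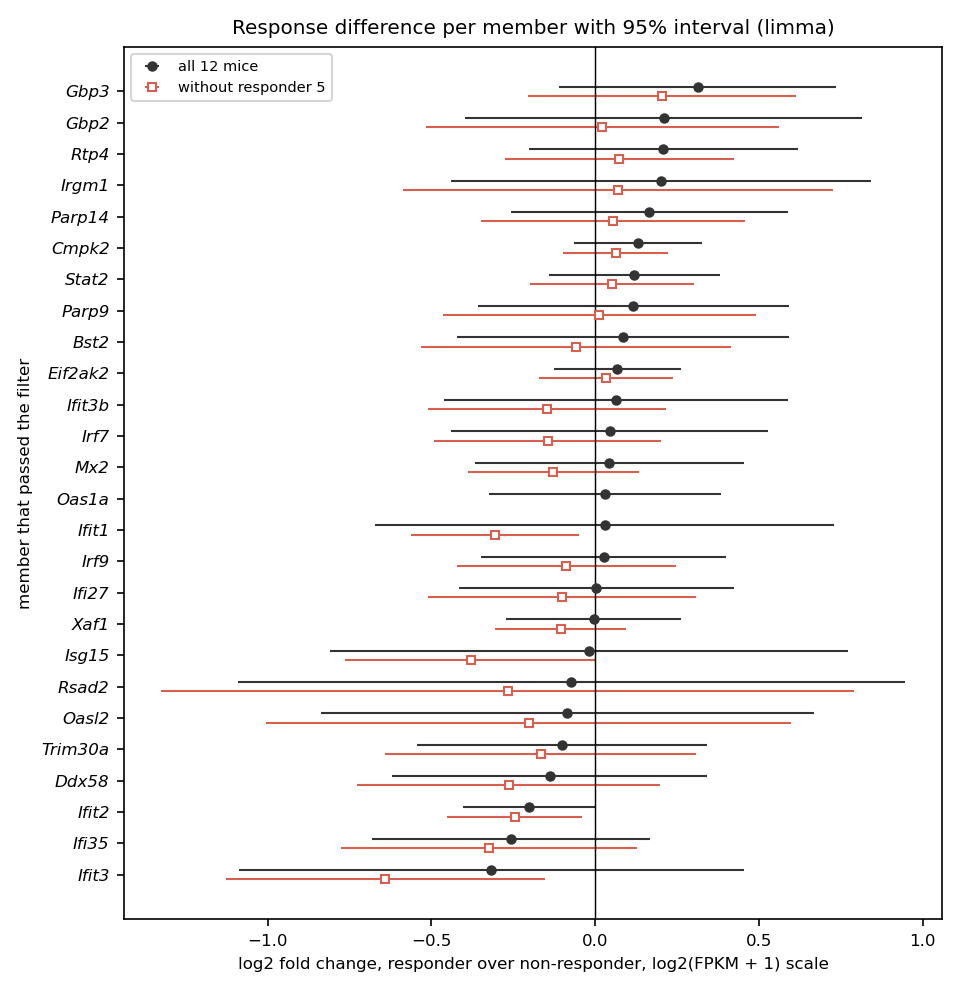
Log2 fold change of responders over non-responders for the 26 tested members, with 95% intervals, in all 12 mice (filled circles) and without responder 5 (open squares; Oas1a then fell below the filter). With all mice every interval covers 0, and without responder 5 the points shift to the left and those of Ifit1, Ifit2 and Ifit3 exclude 0. Responder 5 was left out after its high values were seen, so the shift is a description.

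Responder 5, a female and the only mouse whose description begins with 45, carried the highest value of 15 of the 26 tested members. That is 57.7% of them, against 9.94% of all genes tested. This mouse was singled out after its values were seen, so the counts are a description. The 15 were Ifit1, Ifit3, Ifit3b, Isg15, Irf7, Irf9, Stat2, Mx2, Oas1a, Rtp4, Ddx58, Bst2, Xaf1, Cmpk2 and Gbp2, and 4 members below the filter (Mx1, Oasl1, Ifi44 and Dtx3l) were also highest there. Oas1a reached 1 FPKM in only 3 mice, responder 5 among them, and fell below the filter without this mouse. Its place in these counts is therefore not independent of the filter. All 26 tested members lay above the median of the other 11 mice, with a median difference of 0.60 log2 units, against -0.02 over all genes. A difference of at least 1 log2 unit was found for 5 members (19.2%, against 1.51% of all genes): Isg15 at 2.02, Ifit1 at 2.01, Ifit3 at 1.88, Ifit3b at 1.32 and Gbp2 at 1.21.

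In FPKM, responder 5 stood 5.42 times over the median of the other 11 mice for Ifit1, 4.70 times for Isg15, 4.04 times for Ifit3, 2.91 times for Mx2, 2.82 times for Irf7 and 2.78 times for Ifit3b. The excess was uneven across the set: Cmpk2 stood at 1.35 times, Ifi27 at 1.35 times, Ifit2 at 1.26 times and Eif2ak2 at 1.14 times. Summed over all 39 members, the level was 246 FPKM in responder 5, against 101 to 171 FPKM in the other 11 mice. By promoter, the 14 tested members with an ISRE core in their window had a median difference of 0.95 log2 units in responder 5. The 7 with a window but no core had 0.53, and the 5 without a window had 0.60. These classes overlapped widely, at 0.17 to 2.02 with a core and 0.21 to 0.96 without one. In responder 1 the medians were 0.17 with a core, 0.14 without and 0.62 with no window, and in non-responder 4 they were 0.48, 0.36 and 0.22 in the same order.

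**Figure D4:**
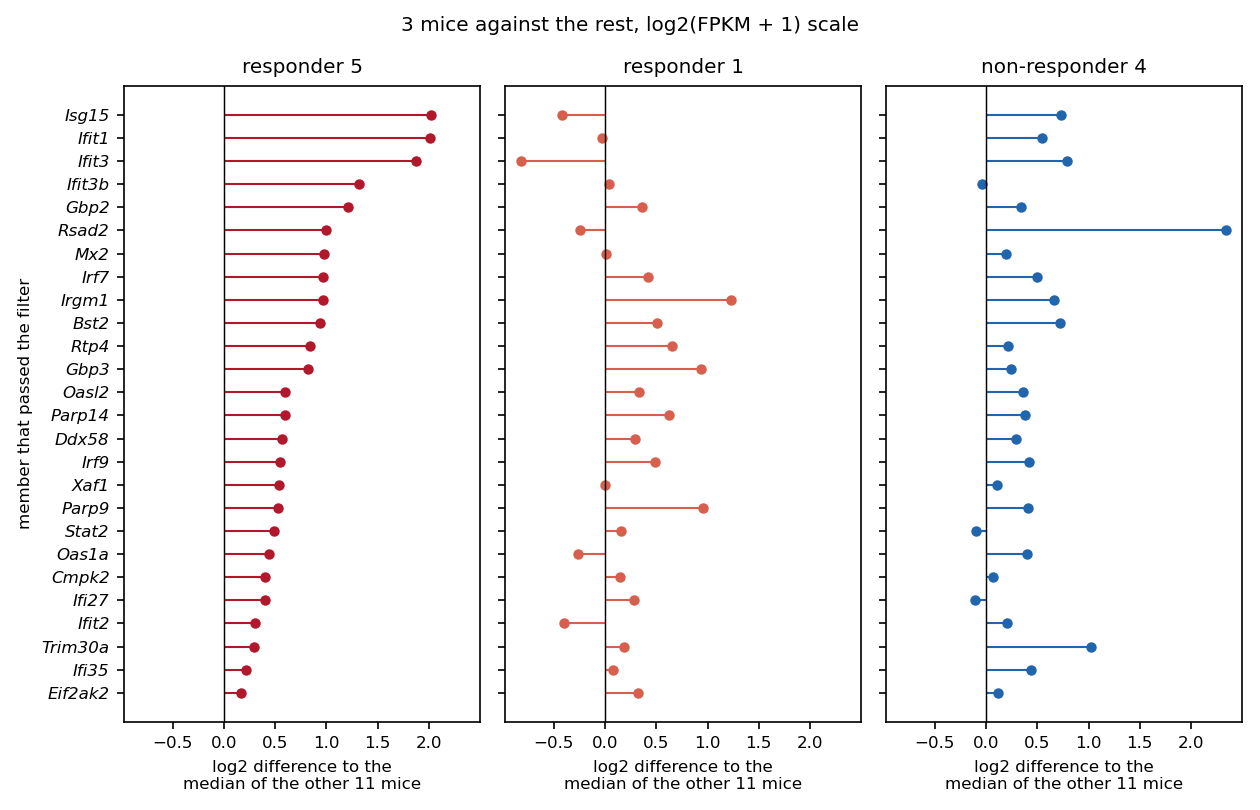
Log2 difference of each tested member to the median of the other 11 mice, in responder 5, responder 1 and non-responder 4, with members ordered by responder 5. All 26 points of responder 5 lie above 0 with Isg15 and Ifit1 at the top, while responder 1 peaks at Irgm1 and non-responder 4 at Rsad2.

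Responder 1 and non-responder 4 each held the highest value of other members, at shares no larger than over all genes. Many members were still raised in these mice. Of the 26 tested, 20 lay above the median of the other 11 mice in responder 1 and 23 in non-responder 4. The median differences were 0.23 and 0.37 log2 units, against 0.03 and -0.03 over all genes. Responder 1 held the highest value of 5 of the 26 (Parp14, Parp9, Eif2ak2, Gbp3 and Irgm1), or 19.2%, against 24.4% of all genes, and its Ifit1, Ifit3 and Isg15 were at 0.973, 0.520 and 0.701 times the median of the other mice. Non-responder 4 held the highest value of Rsad2 and Trim30a, 2 of 26, against 16.0% of all genes, with Rsad2 at 7.13 times and Trim30a at 3.36 times the median of the others. Non-responder 5 held the highest Oasl2, Ifi27 and Ifi35 (3 of 26, against 5.51% of all genes), and non-responder 6 the highest Ifit2 (1 of 26, against 4.85%). The other 7 mice held none. At the low end, non-responder 2 held the lowest value of 8 members (7.37% of all genes), responder 6 of 7 (7.13%) and responder 4 of 6 (9.05%).

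**Figure D5:**
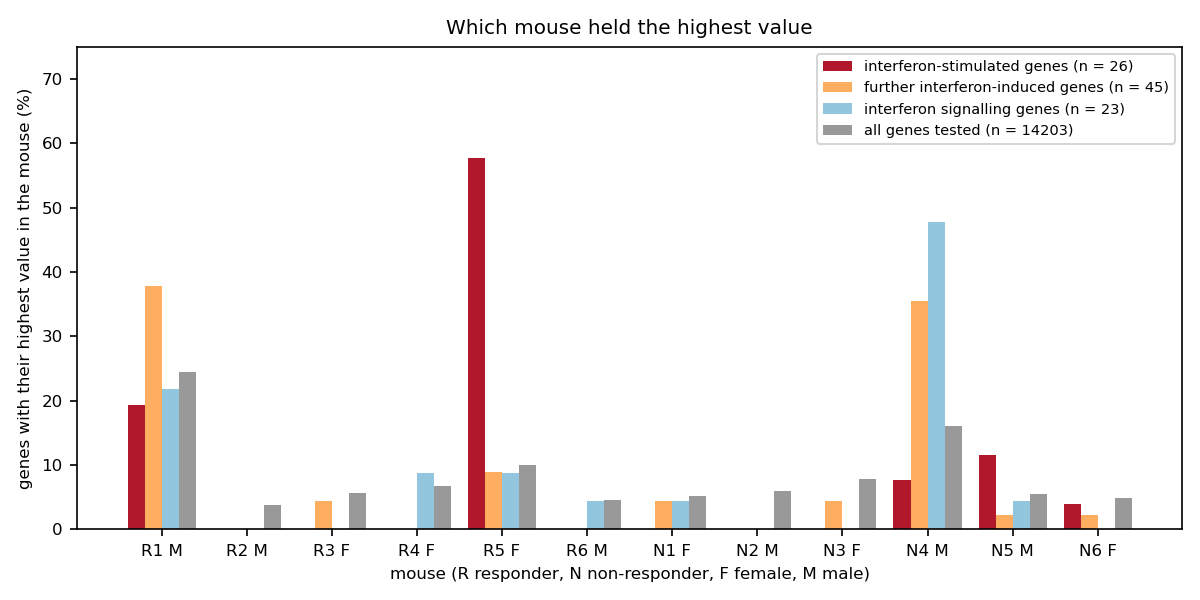
Share of genes (%) whose highest value over 12 mice fell in each mouse, for the 26 tested interferon-stimulated genes, 2 further interferon lists and all genes tested. The bar of the interferon-stimulated genes reaches 57.7% in responder 5, against 9.94% of all genes, and the further interferon-induced genes peak in responder 1 and non-responder 4.

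Markers of immune cells were read beside these values. In responder 5 the summed macrophage markers (12 genes, none at 0) stood at 83.8 FPKM, against 38.2 to 127 FPKM in the other 11 mice. The neutrophil sum (8 genes, none at 0) was 11.6 FPKM, against 7.95 to 4142 FPKM in the others. The B cell sum (5 genes, none at 0) was 195 FPKM, against 4.35 to 246 FPKM, and the T and NK cell sum (9 genes, none at 0) was 3.54 FPKM, against 0.429 to 20.9 FPKM. By these sums responder 5 ranked 4 for macrophages, 10 for neutrophils, 3 for B cells and 4 for T and NK cells among the 12 mice. At 1 FPKM or more there were 9 macrophage, 5 neutrophil, 2 B cell and 1 T and NK cell genes in this mouse. The B cell and the T and NK cell sums thus rest on few genes. The plasmacytoid dendritic cell sum, whose 5 genes include Bst2 itself, was 20.1 FPKM there, against 7.94 to 31.7 FPKM, and the sensory neuron sum was the highest, at 2815 FPKM. The part of these cells in the levels of the members was not tested. In non-responder 4, where Rsad2 and Trim30a were highest, the macrophage, neutrophil and T and NK cell sums were all the highest of the 12 mice (127, 4142 and 20.9 FPKM). Over the groups, the fibroblast sum (6 genes) was 261 to 513 FPKM in responders and 552 to 1608 FPKM in non-responders, with no overlap, and its part in the comparison of the groups was not tested.

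Without responder 5 more members were lower than higher. Of the 25 then tested, 9 were above 0 and 16 below 0 for responders over non-responders, and the median log2 difference was -0.11, against 0.00 over all genes. Ifit3 stood at -0.64 (SE 0.22), Ifit1 at -0.31 (SE 0.12) and Ifit2 at -0.25 (SE 0.09). These 3 had an unadjusted p under 0.05 by limma, where 3.52% of all genes did so in that direction. Their adjusted p-values were 0.716 for Ifit3, 0.752 for Ifit1 and 0.752 for Ifit2 by limma. Responder 5 was left out because it was high in members of this set, so these counts and p-values are a description and not a test. The mouse was not chosen by the other genes, so their share is no like background. No member passed the adjusted threshold. Without responder 1 the median was 0.00, with 14 higher and 12 lower, and without non-responder 4 it was 0.13, with 19 higher and 6 lower of 25.

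Females and males were compared with the response group as a covariate. No member passed an adjusted p of 0.05, where 0.0563% of all genes did (8 of 14203). At an unadjusted p under 0.05, 3 members were higher in females, which is 11.5% of the 26, against 2.01% of all genes in that direction, and all 3 were IFIT genes. Among them, Ifit3 and Ifit3b are near copies and so are not separate counts. Ifit3 averaged 13.0 ± 8.48 FPKM in females and 6.30 ± 3.74 FPKM in males (SD, n = 6 each). Ifit3b averaged 7.36 ± 3.61 FPKM in females and 4.32 ± 1.09 FPKM in males. Ifit2 averaged 9.47 ± 1.19 FPKM in females and 7.71 ± 1.08 FPKM in males. Their log2 fold changes, female over male, were 0.91 for Ifit3, 0.59 for Ifit3b and 0.27 for Ifit2, each with an adjusted p of 0.864 by limma. Without responder 5 they were 0.58, 0.38 and 0.22, with an adjusted p of 0.951 for each by limma, and each kept an unadjusted p under 0.05, as did 1.62% of all genes in that direction. An unadjusted p under 0.05 was left for 1 member without responder 6, and for 2 members without non-responder 2 or non-responder 3. The sexes overlapped for all 26 members, as for all but 0.317% of genes. Over the tested members the fold change was above 0 for 17 of 26, against 48.3% of all genes, with a median of 0.07 against -0.01. This tilt rested on single mice: without responder 5 it was above 0 for 10 of 25, with a median of -0.06, and without responder 2 or responder 6 for 12 of 26, with a median of -0.01 each.

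Whether the response difference was unlike in females and males was tested by the interaction, taken as the female difference minus the male one. No member passed an adjusted p of 0.05, and 0% of all genes did. The interaction was above 0 for 24 of 26 members, against 50.4% of all genes, with a median of 0.23 against 0.00. This direction rested largely on responder 5, without which the interaction was above 0 for 10 of 25, with a median of -0.06. It was above 0 for 15 of 25 without non-responder 4, and for 18 to 25 members without any other mouse. At an unadjusted p under 0.05 there were 2 of 26, against 5.01% of all genes. Stat2 averaged 7.96 ± 1.27 FPKM in responder females and 5.89 ± 0.283 FPKM in non-responder females, and 5.87 ± 0.947 FPKM in responder males and 6.50 ± 0.369 FPKM in non-responder males (SD, n = 3 each). Ifi35 averaged 1.19 ± 0.163 FPKM in responder females and 0.986 ± 0.267 FPKM in non-responder females, and 0.635 ± 0.459 FPKM in responder males and 1.57 ± 0.597 FPKM in non-responder males. The interaction was 0.50 (SE 0.19) for Stat2 and 0.81 (SE 0.32) for Ifi35, both with an adjusted p of 0.836 by limma. Without responder 5 they were 0.41 and 0.76, with an unadjusted p of 0.0631 for Stat2 and 0.0575 for Ifi35 by limma, and no member had an unadjusted p under 0.05 without responder 2, 5 or 6 or non-responder 5. Oasl2 had the next smallest p, with 1.17 (SE 0.62, adjusted p = 0.836 by limma). It averaged 2.52 ± 0.725 FPKM in responder females and 1.60 ± 1.14 FPKM in non-responder females, and 1.34 ± 0.935 FPKM in responder males and 2.93 ± 2.19 FPKM in non-responder males. With mice weighted by limma's array weights these 3 passed the threshold, as did 3.58% of all genes.

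The ligands and receptors upstream were read from a list of 34 interferon signalling genes, of which 33 were in the table and 23 were tested. Ifne, Ifnl2 and Ifnl3 were listed at 0 in every mouse, Ifnb1 never passed 0.0408 FPKM and Ifng never passed 0.058 FPKM. No gene of this list passed an adjusted p of 0.05 for the response. At an unadjusted p under 0.05, 1 was higher and 1 was lower, against 3.23% higher and 4.17% lower of all genes. The median log2 fold change was -0.06, with 9 higher and 14 lower. Ifngr2, a chain of the interferon gamma receptor, averaged 14.3 ± 1.93 FPKM in responders and 17.0 ± 0.884 FPKM in non-responders (SD, n = 6 each; log2 fold change -0.24, adjusted p = 0.635 by limma). Its groups did not overlap, as was so for 0.549% of all genes, with at most 16.06 FPKM in responders and at least 16.15 FPKM in non-responders. Ifnar1, a chain of the type I receptor, averaged 1.75 ± 0.629 FPKM in responders and 2.42 ± 0.573 FPKM in non-responders. Il10rb, shared by the interferon lambda receptor, averaged 3.20 ± 1.83 FPKM in responders and 1.67 ± 1.86 FPKM in non-responders. Their log2 fold changes were -0.33 for Ifnar1 and 0.72 for Il10rb (adjusted p = 0.692 and 0.715 by limma), and for both the groups overlapped.

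A further 55 interferon-induced genes, of which 45 were tested, gave no adjusted call for the response either. At an unadjusted p under 0.05, 1 was higher and 3 were lower, against 3.23% higher and 4.17% lower of all genes. The fold change was above 0 for 22 and below 0 for 23, with a median log2 fold change of -0.05. Ifitm1, an inhibitor of viral entry, averaged 3.32 ± 0.451 FPKM in responders and 7.35 ± 4.49 FPKM in non-responders (SD, n = 6 each). Ifi27l2a, a relative of Ifi27, averaged 5.01 ± 1.44 FPKM in responders and 9.14 ± 3.86 FPKM in non-responders. Ifit1bl1, an IFIT relative, averaged 1.04 ± 0.167 FPKM in responders and 1.36 ± 0.232 FPKM in non-responders. Their log2 fold changes were -0.82, -0.70 and -0.21 in that order (adjusted p = 0.512, 0.602 and 0.640 by limma). Ifitm1 did not overlap between the groups, as was so for 0.549% of all genes, with at most 3.67 FPKM in responders and at least 3.75 FPKM in non-responders. In this list responder 5 held the highest value of 4 of 45 genes, responder 1 of 17 and non-responder 4 of 16. Over all genes the shares were 9.94%, 24.4% and 16.0% in that order. In the signalling list responder 5 held 2 of 23 and non-responder 4 held 11, against the same 9.94% and 16.0%.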

How the data were processed

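Trigeminal ganglia of 12 mice were sequenced after poly A selection, and the titles gave the response group and the characteristics the sex. The authors deposited 1 table with a value per Ensembl gene and mouse, read here as FPKM (fragments per kilobase, relative to library depth). The header does not name the unit, which was inferred from the values. The submitters' processing notes name the aligner STAR (2.6.0a), the assembler StringTie (1.3.5) and the builds GRCm38 and mm10. Annotation, settings and strand use: not given in the sources used here. Whole reads could not be recovered (26.4% to 36.8% of values in genes with 1 exon came within 0.05 of a whole fragment), so precision is known only through the implied depth and no count test was run. FPKM was not rescaled.

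Symbols and coordinates came from GENCODE M21, which held 51076 of 51341 identifiers, and promoter windows from RefSeq. The 14203 genes that reached 1 FPKM in 3 or more mice entered limma 3.58.1 (R 4.3.3) as log2(FPKM + 1). It used eBayes without trend or robust fitting (2.23 prior and 9 residual degrees of freedom for response and sex), 2-sided, with Benjamini-Hochberg adjustment over all 14203. Tables were handled in Python 3.11.15. The procedure was tested on simulated data. Near copies were sought with blastn 2.17.0 (at least 90% identity over at least 200 bases). The p-values measure the spread between mice, taken as independent. No labels tie the mice to litters, but several mice share a description number of unstated meaning, so independence was not shown. The members and gene lists were chosen with earlier results of these data known. Values per mouse or as ranges were given for the 5 members with the highest mean, the 6 with the smallest p for the response, the 3 for sex, the 3 for the interaction, the 4 with the largest SD, and up to 4 genes of each further list. The other members are given by range or mean, and responder 5, responder 1 and non-responder 4 were singled out after their values were seen. Other pseudocounts, filters, scalings, weights, a replicate block, averaging by description number and leaving out each mouse were tried. Tlr9 was not analysed here, and 1 gene counted in both further lists is not reported here.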

Additional observations from a re-analysis of the deposited data

Results flagged for a closer look

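Within the groups of 6 mice, 78 member and group combinations were examined for a mouse far from the rest, by the gap to the nearest mouse over the range of the group (critical value 0.625). For independent, normally distributed values about 1 in 20 groups would be marked, and 14 were marked here. FPKM was not shown to be so distributed and the share over all genes was not measured, so no excess is read from this count. In 8 the outlying mouse was responder 5, always as the highest. The ratio was 0.95 for Ifit1, 0.934 for Isg15, 0.87 for Oasl1, 0.791 for Mx2, 0.782 for Ifit3, 0.778 for Mx1, 0.739 for Ifit3b and 0.739 for Xaf1. Its values were 11.9 FPKM for Ifit1 and 21.8 FPKM for Isg15, with the next responders at 2.25 and 4.63 FPKM. Of these 8 genes, Oasl1 and Mx1 were below the filter, and Ifit3 with Ifit3b and Mx1 with Mx2 are near copies, so they are not separate counts.

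Among non-responders, non-responder 4 was far above the others for Trim30a (0.746, at 2.59 FPKM), Rsad2 (0.733, at 14.0 FPKM) and Parp9 (0.722, at 3.75 FPKM). Non-responder 5 was far above for Usp18 (0.718, at 0.636 FPKM). Non-responder 2 was far below for Zbp1 (0.668, at 0.0547 FPKM) and Xaf1 (0.656, at 6.79 FPKM). Usp18 and Zbp1 were below the filter.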

How the results depend on the processing

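No member passed an adjusted p of 0.05 for the response or for sex under any alternative run, and the smallest adjusted p of a member for the response was 0.497. Of 582 member values for the response, 523 kept their sign and 59 changed it, in 16 members with small fold changes. The count of genes past the threshold for the response was 3, and 2 to 6 when each mouse was left out, with 6 without responder 5 or responder 6. It was 1 when mice were averaged by description number. For sex the count was 8, then 6 to 9 without a mouse and 3 with a mean of at least 5 FPKM. For the interaction it was 0, then 0 to 3 without a mouse, 1 with a mean of at least 5 FPKM and 508 with array weights. Array weights also put 3 members past the threshold for the interaction, Stat2 at 0.67, Ifi35 at 1.12 and Oasl2 at 2.31 (adjusted p = 0.0279, 0.0281 and 0.0322 by limma). For these 3 the other alternatives gave no call, and the cause was not tested.

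The replicate numbers do not pair the mice: 1 of 6 pairs had a correlation over 0.1 (range -0.27 to 0.13), and 0 of 6 responders correlated best with their own number. With the replicate block the count was 1 for the response and 5 for sex.

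Over the alternatives the median fold change of the members ran from -0.11 to 0.14, and without each mouse from -0.11 (without responder 5) to 0.13 (without non-responder 4). Directions that changed with a setting were Ifit1 at -0.015 (pseudocount 0.1), Ifi27 at -0.0047 (median-of-ratios scaling) and Xaf1 at 0.0052 (quantile normalization). With array weights they were Isg15 at 0.023, Irf9 at -0.067, Mx2 at -0.019, Rsad2 at 0.18, Ifi27 at -0.14 and Parp9 at -0.026. With mice averaged they were Isg15 at 0.26, Rsad2 at 0.051 and Xaf1 at 0.073. Without each mouse in turn the fold changes ran as follows: Ifit1 -0.31 to 0.15, Ifit3b -0.15 to 0.20, Isg15 -0.38 to 0.15, Irf7 -0.14 to 0.14, Irf9 -0.088 to 0.096, Mx2 -0.13 to 0.11, Oas1a -0.057 to 0.094, Oasl2 -0.24 to 0.17, Rsad2 -0.32 to 0.32, Ifi27 -0.10 to 0.11, Ddx58 -0.26 to 0.016, Bst2 -0.058 to 0.24, Xaf1 -0.11 to 0.038, Parp9 -0.040 to 0.26, Trim30a -0.21 to 0.081, Irgm1 -0.012 to 0.35. The implied depth limits low members most: the 13 below the filter were not tested, and near 0 a listing need not mean absence. Averaging by description number left 7 values.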

Other observations

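The further interferon-induced genes peaked in other mice than the members did, in genes named here after their values were seen. In responder 1, the immunity-related GTPases Tgtp1 and Tgtp2 stood at 7.07 and 6.77 FPKM, against 0.370 to 2.89 FPKM for Tgtp1 and 0.419 to 3.68 FPKM for Tgtp2 in the other 11 mice. The membrane protein gene Ly6e was at 100.1 FPKM there, against 10.6 to 70.3 FPKM in the others. In non-responder 4, Slfn2, a regulator of immune cell quiescence, was at 20.3 FPKM, against 0.802 to 4.82 FPKM in the others. The nuclear body gene Sp110 was at 8.92 FPKM, against 0.632 to 2.50 FPKM. Pituitary markers in responder 1 and neutrophil markers in non-responder 4 were also the highest of the 12 mice, and their part in these values was not tested. Irgm2, which overlaps Igtp, was highest in responder 5 at 8.52 FPKM, with responder 1 at 7.84 FPKM and non-responder 4 at 7.73 FPKM.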
